A study of Mus musculus with 3 samples.

Results

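Slc15a2, Slc15a3 and Slc15a4 are the 3 members of the proton-coupled peptide transporter family with appreciable counts in these bone marrow cells, out of 56980 genes listed in the deposited matrices. They were picked by gene symbol, and they were chosen by values measured in these same libraries, since earlier results had shown one of them low in the irradiated library. The levels and ratios below are therefore a description of these libraries and no test was made on them. The family has 5 listed genes. The other 2, Slc15a1 and Slc15a5, stayed under 50 UMIs over all kept cells: Slc15a1, the peptide transporter of the small intestine, had 7, 4 and 6 UMIs in Control, IR and IR+CBD, and Slc15a5 had 0, 3 and 2.

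The SLC15 proteins move short peptides across membranes together with protons. Slc15a2 (PEPT2) sits at the cell surface and is a high-affinity carrier of dipeptides and tripeptides, best known from kidney and brain, and it can carry bacterial peptides into cells. Slc15a3 (PHT2) and Slc15a4 (PHT1) sit on endosomes and lysosomes and carry histidine and peptides, including muramyl dipeptide, the ligand of the receptor Nod2. Slc15a4 also holds the adaptor Tasl at the lysosome, from where Toll-like receptors 7 and 9 reach the transcription factor Irf5 in plasmacytoid dendritic cells and B cells.

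Each group was 1 droplet library of femoral bone marrow nucleated cells (BMNCs) from 3 pooled male C57BL/6 mice, collected at day 14. Control mice had no irradiation. IR mice had 6.0 Gy from Cobalt-60 with the solvent, soybean oil with 2% DMSO. IR+CBD mice had 6.0 Gy with 4 intraperitoneal injections of cannabidiol at 50 mg/kg in that solvent, 12 h and 0.5 h before and 12 h and 24 h after irradiation. Lin-Kit+, Lin-Kit- and Lin+ cells had been sorted and remixed at 5:4:1, so cell shares refer to that mix. Cells with at least 200 genes and at most 5% mitochondrial UMIs were kept, which left 10674 Control, 10345 IR and 10273 IR+CBD cells with 194839224, 202361682 and 173466089 UMIs. Median depth was 12479.5, 14211 and 12502 UMIs per cell. Between 35 and 51 barcodes occurred in both libraries of a pair. Levels are given as CPM, the UMIs of a gene per 1000000 UMIs of the cells summed. Their 95% intervals are Poisson intervals for levels, exact conditional binomial intervals for ratios and Clopper-Pearson intervals for shares of cells, and all cover counting error only. With 1 library per group there was no replicate check, and treatment cannot be told apart from differences among the pooled mice or between the library preparations.

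Cells were also gated by raw UMIs of named genes. The gates were Mpo (at least 5 UMIs, granulocyte and monocyte progenitors), Klf1 (at least 2, erythroid cells), Cd79a (at least 2, B lineage), Retnlg (at least 5, neutrophils), Siglech (at least 3, plasmacytoid dendritic cells) and Cd34 with Adgrl4 (at least 1 UMI of each, early progenitors). In each of the 3 libraries the separate marker list of every gate was highest in its own gate. For the Cd34 with Adgrl4 gate, the list Hlf, Mecom, Procr, Meis1 and Kit summed to 360, 260 and 323 CPM in Control, IR and IR+CBD. The Mpo gate had 185, 154 and 172 CPM of that list. The markers of the Mpo gate (Elane, Prtn3, Ctsg, Ms4a3 and Cebpe) summed to 9437, 11225 and 11439 CPM in the Cd34 with Adgrl4 gate. That gate thus also held cells with markers of granulocyte and monocyte progenitors. The Mpo gate held 3227, 2916 and 3294 cells in Control, IR and IR+CBD, and the Siglech gate held 273, 46 and 79. Cells could enter more than 1 gate, and 2470, 2060 and 2055 cells did, mostly between the Mpo gate and the Cd34 with Adgrl4 gate. Outside all 6 gates were 1688, 1168 and 1357 cells.

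Slc15a2, the cell-surface carrier, was lowest in IR. Its level was 9.90 CPM (9.46 to 10.4) in Control, 1.23 CPM (1.08 to 1.39) in the IR library and 12.1 CPM (11.6 to 12.6) under IR+CBD. The interval of IR lay far below the other 2, and IR+CBD lay above Control. The counts behind these levels were 1929, 248 and 2096 UMIs. The ratio of IR to Control was 0.124 (0.108 to 0.141), that of IR+CBD to IR was 9.86 (8.64 to 11.3) and that of IR+CBD to Control was 1.22 (1.15 to 1.30). Over the 21376 genes with at least 50 UMIs, 4.14% were at least 2-fold lower in IR than in Control and 2.24% were at least 2-fold higher. Between IR+CBD and IR, 0.982% of the genes were at least 2-fold higher and 1.11% were lower, and Slc15a2 was among the higher ones. Between IR+CBD and Control the shares were 1.76% higher and 3.42% lower, and none of the 3 transporters was past 2-fold there. Nothing is read from the place of Slc15a2 in these shares, because the gene was chosen for this contrast.

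Of the 3 transporters, 2 have a promoter window in the RefSeq table used here, from 250 bases before to 50 bases after the start on build GRCm38.p6. The windows are shown for Slc15a2, which differed most between the libraries, and for Slc15a4, which differed least. Both genes lie on the minus strand and the sequences read 5′ to 3′ along it, with capitals marking the 5-letter motif TGACG, the CRE core that CREB and ATF factors bind.
Slc15a2, chr16:36784913-36785212: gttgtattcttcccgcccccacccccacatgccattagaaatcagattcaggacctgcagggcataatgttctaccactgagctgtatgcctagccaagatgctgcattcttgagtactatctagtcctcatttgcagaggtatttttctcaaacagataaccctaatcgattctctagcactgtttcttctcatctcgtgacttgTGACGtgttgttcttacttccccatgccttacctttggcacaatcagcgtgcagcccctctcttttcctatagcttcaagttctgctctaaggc
Slc15a4, chr5:127617343-127617642: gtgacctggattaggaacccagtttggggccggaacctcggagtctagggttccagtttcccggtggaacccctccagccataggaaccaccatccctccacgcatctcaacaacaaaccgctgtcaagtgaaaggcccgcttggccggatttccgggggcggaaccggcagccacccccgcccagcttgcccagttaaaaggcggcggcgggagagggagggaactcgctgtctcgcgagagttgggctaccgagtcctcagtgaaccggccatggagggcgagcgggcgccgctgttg
The window of Slc15a2 holds 46.3% G and C and that of Slc15a4 holds 64.0%, against a median of 52.7% over 32851 windows. Searched on both strands, TGACG occurs in 20.8% of all windows and once in that of Slc15a2, 44 bases before the start. It does not occur in the window of Slc15a4. The motif GAAANNGAAA, as in interferon-stimulated response elements, occurs in 3.44% of windows and in neither of these, and AGGAAG, the PU.1 core, occurs in 35.4% and in neither. The E-box CACGTG occurs in 7.15% of windows and in neither. The GC box GGGCGG occurs in 35.7% of windows, once in that of Slc15a2 and 2 times in that of Slc15a4. The RefSeq start of Slc15a4 lies inside the interval that GENCODE gives the gene, so other starts of it are not covered by this window. These matches are a description of letters and say nothing of binding.

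The low level of Slc15a2 in IR was present in every gate. In the Mpo gate the level was 6.30 CPM in Control, 0.625 in the IR library and 8.50 under IR+CBD. In the Cd34 with Adgrl4 gate it was 8.97, 0.982 and 11.6 CPM. The ratio of IR to Control was 0.0992 (0.0747 to 0.130) in the Mpo gate and 0.109 (0.0839 to 0.141) in the Cd34 with Adgrl4 gate. Of the cells in the latter gate, 2253 of 3116 in Control and 1741 of 1952 in IR were also in another gate. These ratios are thus in large part of the same cells and do not compare separate populations. In the Klf1 gate the level was 5.21, 0.899 and 8.14 CPM. In the Cd79a gate it was 17.7, 2.08 and 26.2 CPM. B-lineage cells thus had the same pattern at a higher level of this gene, and the ratio of IR to Control there was 0.117 (0.0910 to 0.150). In the Retnlg gate the level was 9.27, 1.75 and 8.97 CPM. In the Siglech gate it was 17.9, 1.62 and 28.6 CPM, where the IR value rests on 1 UMI in 46 cells. Neutrophils had the ratio of IR to Control nearest to 1, at 0.189 (0.119 to 0.291). The interval lay below 1 in 6 of 6 gates, which share cells.

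**Figure D1:**
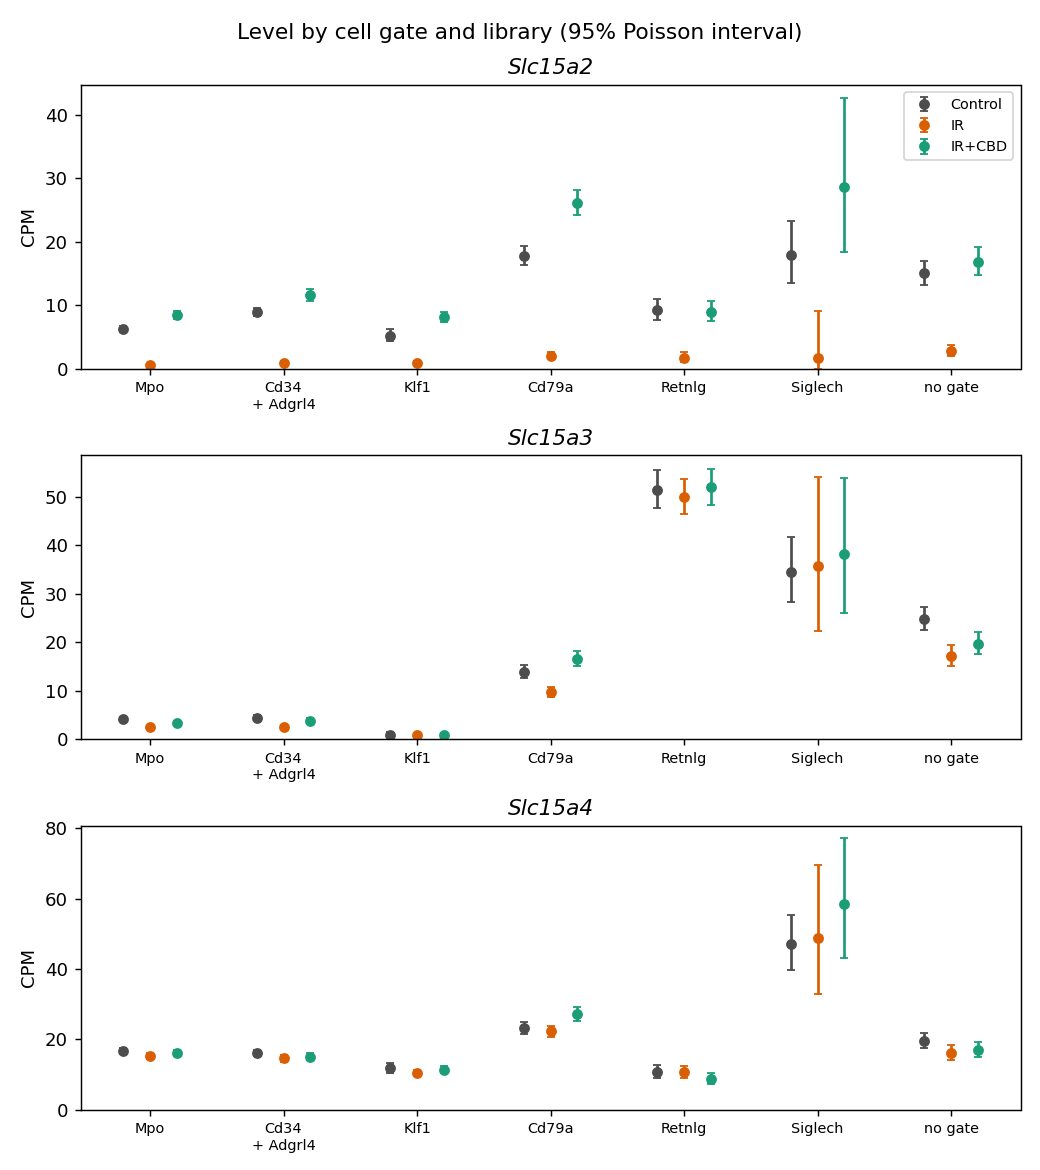
Levels of the 3 transporters in CPM (linear axis from 0) in the 6 gates and in cells outside them, for Control, IR and IR+CBD; points are summed-UMI levels and bars are 95% Poisson intervals. Slc15a2 is lowest in IR in every gate, Slc15a3 is highest in the Retnlg gate at 49.9 to 52.0 CPM, and Slc15a4 is highest in the Siglech gate at 47.1 to 58.4 CPM.

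Between IR+CBD and IR, Slc15a2 was higher in 6 of 6 gates, with ratios from 5.12 (3.34 to 8.12) in the Retnlg gate to 17.6 (2.87 to 725) in the Siglech gate. Between IR+CBD and Control the ratio lay above 1 beyond counting error in 4 gates: Mpo at 1.35 (1.21 to 1.50), Klf1 at 1.56 (1.28 to 1.92), Cd79a at 1.47 (1.32 to 1.65) and Cd34 with Adgrl4 at 1.30 (1.17 to 1.44). In the Retnlg gate it was 0.968 (0.751 to 1.25) and in the Siglech gate 1.60 (0.948 to 2.62), so those 2 gates did not show a difference at this depth. The IR library serves both of the larger contrasts, so they are not independent of each other.

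Slc15a2 was also followed in the cells outside the gates, in further gates and in the removed barcodes. Cells outside all gates had 15.0, 2.82 and 16.9 CPM in Control, IR and IR+CBD. Further gates were added after the values had been seen, for Csf1r with Ccr2 (at least 2 UMIs each, monocyte lineage), Cpa3 (at least 5, mast cell and basophil precursors), Cd3e with Cd3g (at least 1 each, T cells) and Pf4 (at least 5, megakaryocyte lineage). Many of their cells are also in the first 6 gates, such as 455 of 788 Control cells of the monocyte gate and 322 of 494 of the Cpa3 gate, so these values are in part of the same cells. The monocyte gate had 7.55, 1.07 and 13.0 CPM and the Cpa3 gate had 7.74, 0.804 and 10.3 CPM, both with IR lowest. The T cell gate had 22 UMIs of Slc15a2 in 100 Control cells, 0 UMIs in 49 IR cells, which allows a share of cells with a UMI of up to 6.12% by a limit of 3 counts (7.25% by the Clopper-Pearson interval), and 5 UMIs in 46 IR+CBD cells. There the ratio of IR+CBD to Control was 0.517 (0.153 to 1.40), which did not differ from 1 at this depth. The Pf4 gate did not show IR below Control beyond counting error: with 12, 5 and 9 UMIs, its level was 4.17 CPM in Control, 3.65 in the IR library and 5.61 under IR+CBD, and the ratio of IR to Control of 0.875 (0.242 to 2.67) did not differ from 1 at this depth. The barcodes removed by the quality limits had 22.4, 3.94 and 26.5 CPM, so IR was lowest also in barcodes that were not counted as cells.

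**Figure D2:**
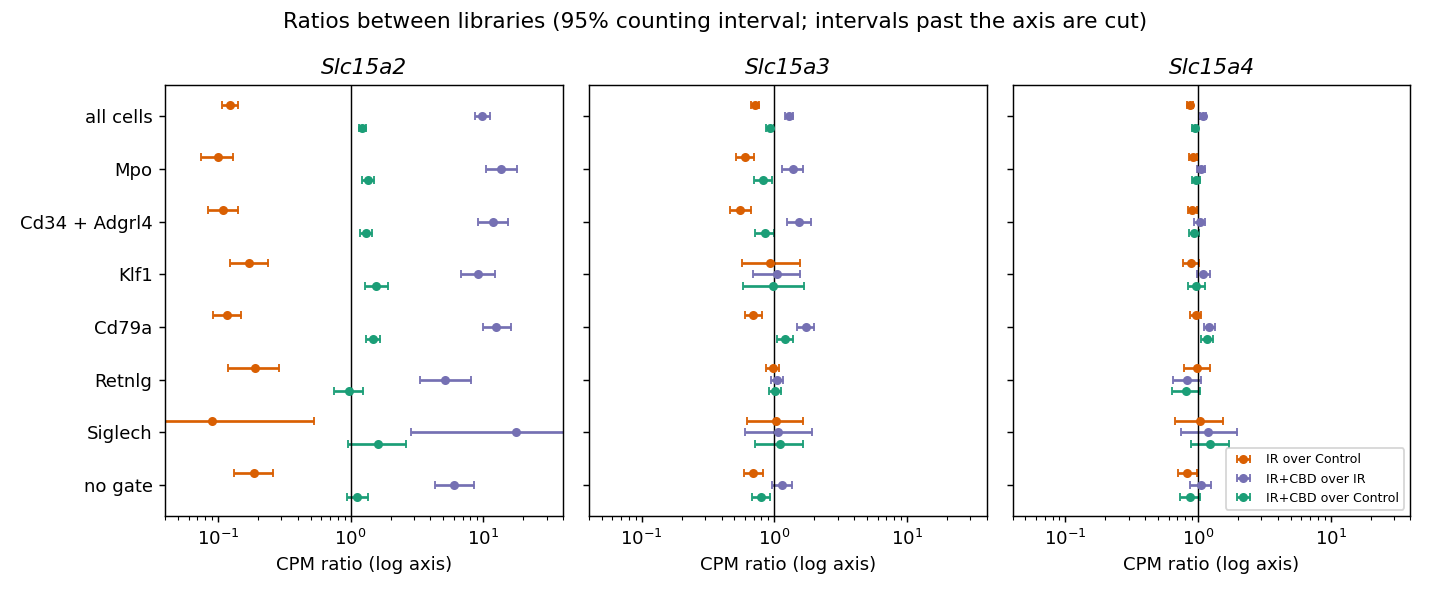
CPM ratios between libraries on a logarithmic axis for all cells, the 6 gates and cells outside them, 1 panel per transporter; points are ratios, bars are 95% counting intervals, and the vertical line marks a ratio of 1. For Slc15a2, IR over Control lies between 0.0907 and 0.189 in the gates, those of Slc15a3 lie between 0.553 and 1.72 over the 3 comparisons, and those of Slc15a4 between 0.813 and 1.24.

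The order of the gates by Slc15a2 level was similar in Control and IR+CBD at its upper end. In Control, the Siglech and Cd79a gates were highest with overlapping intervals, followed by Retnlg and Cd34 with Adgrl4, also overlapping, and then by Mpo and Klf1, which overlapped too. In IR+CBD the Siglech and Cd79a gates were again highest and overlapped, and Retnlg, Mpo and Klf1 overlapped at the lower end. In IR all neighbours in the order overlapped, with the levels between 0.625 CPM in the Mpo gate and 2.08 CPM in the Cd79a gate. Depth differed between the gates, since the Control median was 33196 UMIs per cell in the Mpo gate and 4042 in the Cd79a gate.

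At these low counts per cell, the difference in Slc15a2 appeared as fewer cells with a UMI. A UMI of Slc15a2 was found in 12.8% (12.2 to 13.4) of Control cells, 1.73% (1.49 to 2.0) of those from IR and 14.0% (13.3 to 14.7) of those from IR+CBD. The cells with a UMI held on average 1.41, 1.39 and 1.46 UMIs. Most of these cells had a single UMI, 976 of 1365 in Control, 133 of 179 in the IR library and 1009 of 1436 under IR+CBD, and the highest count in a cell was 8, 7 and 11. If the UMIs had fallen on cells in proportion to depth alone, 1649.5, 242.7 and 1767.6 cells would have had one, so the UMIs were gathered in somewhat fewer cells in each library. When each cell was thinned to 2000 UMIs and shallower cells were left out (401 in Control, 296 in the IR library and 452 under IR+CBD), the shares were 2.93%, 0.377% and 3.67%. At 5000 UMIs they were 5.20%, 0.641% and 5.67%. IR was thus lowest at equal depth as well. No gate lacked the gene in Control or IR+CBD, so these data hold no cell type that gives a background share for Slc15a2 by free RNA.

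Slc15a2 was chosen for its low level in IR, so its own place among genes of this pattern is a description only. Of the 21376 genes, 95 (0.444%) were at least 2-fold lower in IR than in both Control and IR+CBD over all cells. Among these, 2 (0.00936%) were past 2-fold against both also in each of the 5 gates other than Siglech, which was left out for its small size in IR. They were Slc15a2 and Gm34794, a sparse gene with 127 UMIs in all. Slc15a2 was past 2-fold in the Siglech gate too, and of the 95 genes 8 were so in 0 gates and 28 in 1 gate. Only Ighg2b, with 15298 UMIs, had more UMIs among the 95 than Slc15a2, with 4273. Many of the others were sparse, down to 50 UMIs over all kept cells. Such genes have few UMIs per gate, so the number of gates depends on depth. It does not measure how particular the pattern is to Slc15a2.

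**Figure D3:**
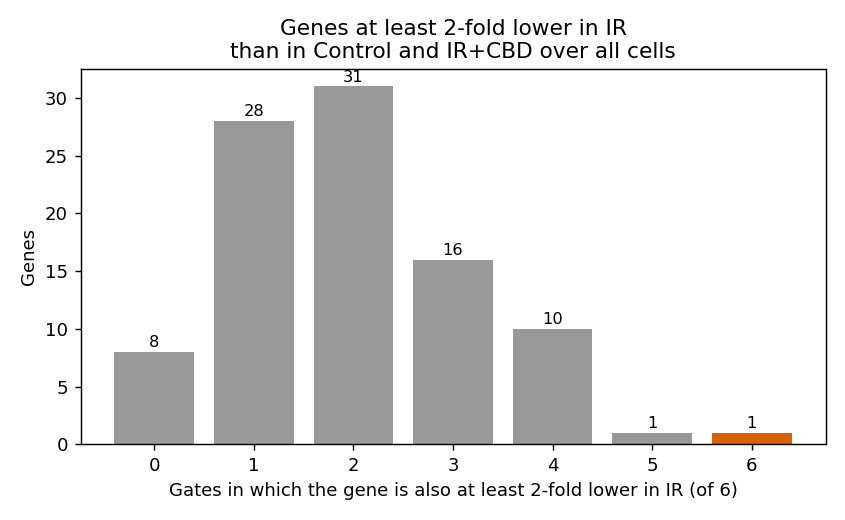
Number of genes (bar height, axis from 0) among the 95 that were at least 2-fold lower in IR than in Control and in IR+CBD over all cells, by the number of gates, out of 6, in which they were also past 2-fold against both. The orange bar at 6 gates is the 1 gene Slc15a2, which was chosen for its low level in IR. The most common number is 2 gates, with 31 genes.

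The genes around Slc15a2 were examined for the same pattern. By Ensembl identifier ENSMUSG00000022899 the gene lies at chr16:36750177-36784962 on the minus strand in GENCODE M21 of GRCm38, a build older than the GRCm39 named in the submitters' notes. Within 1 Mb of its start, 31 other genes had at least 100 UMIs, and 0 of them were at least 2-fold below both other libraries in IR. Over all genes the share was 0.444%, so 0 of 31 is near that share and says nothing particular of these neighbours. On the upstream side the nearest was Iqcb1, a ciliary protein, with its start 43.4 kb away and 34.9, 27.1 and 27.8 CPM in Control, IR and IR+CBD. The next was 2600002D14Rik at 77.5 kb, with 0.606, 0.465 and 0.455 CPM. On the downstream side the nearest was Ildr1, a tight junction protein, at 91.0 kb, with 1.70, 1.10 and 1.52 CPM. The next was Cd86, a costimulatory molecule of antigen-presenting cells, at 118.9 kb, with 28.2, 13.0 and 15.5 CPM. Cd86 was the 1 neighbour past 2-fold lower in IR than in Control, as were 4.14% of all genes, and in IR+CBD Cd86 stayed near its IR level. Further off on the same side, genes of the stefin A cluster of cysteine protease inhibitors were higher in IR+CBD than in Control, such as Stfa3 with 3.41, 2.78 and 8.57 CPM and Stfa2 with 3.99, 3.86 and 11.1 CPM. In all, 5 of the 31 neighbours were past 2-fold higher in IR+CBD than in Control, against 1.76% of all genes. They were Stfa1, Stfa2, Stfa3, Cstdc5 and Csta2. In IR against Control, 2 of the 31 neighbours were past 2-fold higher, against 2.24% of all genes. These were Cstdc5 with 5.46, 14.3 and 19.9 CPM and Csta2 with 0.169, 0.573 and 0.992 CPM in Control, IR and IR+CBD. Stfa1 had 10.2, 16.6 and 25.8 CPM. The pseudogene Gm8425 overlaps Slc15a2 on the opposite strand, with 36 UMIs in all.

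**Figure D4:**
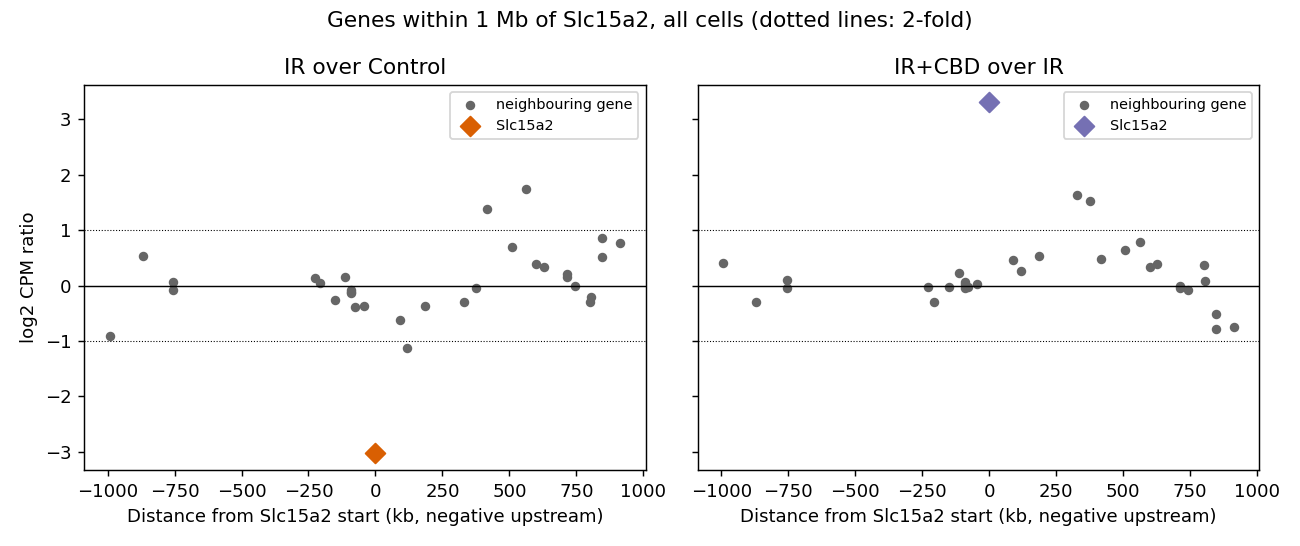
Log2 CPM ratios over all cells of the 31 genes within 1 Mb of the Slc15a2 start, plotted against distance in kb (negative is upstream of Slc15a2), for IR over Control on the left and IR+CBD over IR on the right. Grey points are neighbours, the diamond at 0 kb is Slc15a2 at -3.01 and 3.30, and dotted lines mark 2-fold.

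Slc15a3, an endolysosomal histidine and peptide carrier, was highest in neutrophils and plasmacytoid dendritic cells in all libraries. Over all cells its level was 10.5 CPM (10.1 to 11.01) in Control, 7.51 (7.13 to 7.89) in the IR library and 9.75 (9.29 to 10.2) under IR+CBD, from 2054, 1519 and 1692 UMIs. The ratio of IR to Control was 0.712 (0.666 to 0.761), that of IR+CBD to IR was 1.30 (1.21 to 1.39) and that of IR+CBD to Control was 0.925 (0.867 to 0.987). IR was lowest here too, by far less than 2-fold. Cells with a UMI made up 13.3%, 10.2% and 11.4% of the libraries.

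By gate, Slc15a3 held its level in the Retnlg gate, where it was highest. In the Retnlg gate it was 51.5 CPM (47.7 to 55.5) in Control, 49.9 (46.4 to 53.7) in the IR library and 52.0 (48.3 to 55.8) under IR+CBD, and 40.1%, 42.4% and 37.6% of the cells had a UMI. In the Siglech gate it was 34.6, 35.7 and 38.1 CPM, from 110, 22 and 32 UMIs. The interval of the Siglech gate lay below that of the Retnlg gate in Control and overlapped it in IR and IR+CBD. Intervals of the ratios between libraries in both gates included 1, and in the Retnlg gate that of IR to Control lay between 0.873 and 1.08. In the Siglech gate it lay between 0.622 and 1.64, too wide to show that the level was held there. The Klf1 gate was lowest, at 0.985, 0.915 and 0.956 CPM, with a UMI in 3.41%, 2.84% and 2.79% of cells. With predicted doublets removed, only 1, 8 and 10 of the 24, 58 and 46 UMIs of Slc15a3 remained in this gate, too few to read an order of the libraries. Erythroid cells had the lowest share of the 6 gates, at a Control median of 39670.5 UMIs per cell in that gate, against 8769.5 in the Retnlg gate. Beyond that removal, what part of this share came from free RNA, doublets or low expression was not tested.

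In 3 gates Slc15a3 was lower in IR. In the Mpo gate it was 4.18, 2.50 and 3.43 CPM in Control, IR and IR+CBD, with a ratio of IR to Control of 0.599 (0.510 to 0.702). In the Cd34 with Adgrl4 gate it was 4.47, 2.47 and 3.77 CPM, with a ratio of 0.553 (0.460 to 0.664). In the Cd79a gate it was 13.9, 9.67 and 16.6 CPM, with a ratio of 0.696 (0.603 to 0.804). These 3 gates had ratios of IR+CBD to IR of 1.37 (1.15 to 1.64), 1.53 (1.24 to 1.88) and 1.72 (1.49 to 1.99), while IR+CBD against Control was lower in the first 2 gates and higher in the Cd79a gate. Among cells of the Cd34 with Adgrl4 gate that met no other gate, the ratio of IR+CBD to IR was 0.965, on the other side of 1. The 5 neutrophil markers S100a8, Ly6g, Cxcr2, Mmp8 and Ltf were all detected in these 3 gates. Their summed level was 4407, 3733 and 5516 CPM in the Cd79a gate, 3501, 2852 and 3793 CPM in the Mpo gate, and 1633, 1495 and 2040 CPM in the Cd34 with Adgrl4 gate, each in the order Control, IR and IR+CBD. These sums were lowest in IR in all 3 gates, as Slc15a3 was, and none of the 5 markers was at 0. Their part in the difference was not tested. In the added monocyte gate Slc15a3 was 13.3, 7.87 and 14.7 CPM, and outside all gates 24.7, 17.2 and 19.7 CPM.

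Slc15a4, the lysosomal carrier that anchors Tasl, differed least between the libraries. Over all cells its level was 17.1 CPM (16.5 to 17.7) in Control, 14.9 (14.4 to 15.5) in the IR library and 16.2 (15.6 to 16.8) under IR+CBD, from 3332, 3019 and 2803 UMIs. The ratio of IR to Control was 0.872 (0.830 to 0.917), that of IR+CBD to IR was 1.08 (1.03 to 1.14) and that of IR+CBD to Control was 0.945 (0.898 to 0.994). The interval of the first lay below 1 by little, and the mean over cells of each cell's own CPM gave 0.995 for IR to Control and 1.08 for IR+CBD to Control. Weighting the gates by their Control shares gave 1.02 for IR+CBD to Control, so the direction of that ratio depended on how cells were weighted. A UMI was found in 23.4%, 22.8% and 21.5% of cells.

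Plasmacytoid dendritic cells had the highest level of Slc15a4 in every library. The Siglech gate had 47.1 CPM (39.9 to 55.3) in Control, 48.7 (32.9 to 69.5) in the IR library and 58.4 (43.2 to 77.2) under IR+CBD. The Cd79a gate came next with 23.3, 22.3 and 27.3 CPM, below the Siglech gate without overlap of intervals in each library. The remaining gates followed with Mpo at 16.8, 15.4 and 16.2 CPM and Cd34 with Adgrl4 at 16.1, 14.6 and 15.1 CPM, which overlapped each other. At the lower end stood Klf1 at 11.8, 10.5 and 11.4 CPM and Retnlg at 10.9, 10.7 and 8.83 CPM, which overlapped too. Neutrophils were thus the lowest or next to lowest gate for Slc15a4 and the highest for Slc15a3. For Slc15a3 their interval overlapped that of the Siglech gate in IR and IR+CBD.

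Within the gates, Slc15a4 moved beyond counting error in few places. IR was lower than Control in the Mpo gate, at a ratio of 0.915 (0.853 to 0.980), and in the Cd34 with Adgrl4 gate, at 0.905 (0.835 to 0.981). In the Cd79a gate IR+CBD was higher than IR, at 1.22 (1.10 to 1.35), and higher than Control, at 1.17 (1.05 to 1.30). In the added monocyte gate, IR to Control was 0.821 (0.730 to 0.923). The other gates had intervals that included 1. In the Retnlg gate IR+CBD over Control was 0.813 (0.636 to 1.04) and in the Siglech gate 1.24 (0.879 to 1.72), and both intervals cover counting error only. In the Retnlg gate the ratios also moved with the cells kept. With predicted doublets removed, IR to Control went from 0.981 to 1.46 and IR+CBD to IR from 0.829 to 0.618, on 49, 80 and 50 UMIs, and without cells of other gates they were 1.42 and 0.533, so no order of the libraries is read for Slc15a4 in that gate. The glycosyltransferase gene Glt1d1 overlaps Slc15a4 on the opposite strand and had 2448 UMIs in all. At 4.79, 3.28 and 4.91 CPM it was also lowest in IR, and because the strand setting of the counting is not given in the sources used here, reads of the overlap cannot be assigned with certainty.

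The transporters' known partners were followed as lists of pathway genes, described by counts and medians. Of 16 genes of bacterial peptide sensing by NOD receptors, all 16 had at least 50 UMIs, and 0 were past 2-fold in any of the 3 comparisons. The largest share of all genes past 2-fold in 1 direction was 4.14%, lower in IR than in Control. A count of 0 of 16 is thus near the shares of all genes. Nod2, the receptor for muramyl dipeptide, had a ratio of IR to Control of 0.651 (0.529 to 0.80) and of IR+CBD to IR of 1.36 (1.10 to 1.70). Slc46a2 and Slc46a3, other carriers of muropeptides, had ratios of IR to Control of 1.47 (1.16 to 1.86) and 1.24 (1.11 to 1.37). The list had a median log2 ratio of IR to Control of -0.05, equal to the median of all genes at this rounding.

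Of 24 genes of endolysosomal Toll-like receptor signalling, 1 was past 2-fold higher in IR than in Control and lower in IR+CBD than in IR, and it was Irf7, a transcription factor that interferons induce. Over all genes the shares were 2.24% and 1.11%, so 1 of 24 is near them. Irf7 had 5.75, 27.3 and 6.74 CPM in Control, IR and IR+CBD. Tasl, the adaptor that Slc15a4 binds, had a ratio of IR to Control of 0.794 (0.753 to 0.837) and of IR+CBD to Control of 0.707. Tlr7, a receptor for single-stranded RNA, had 0.641 (0.567 to 0.724) and 0.546. The list's median log2 ratio was -0.14 for IR to Control and -0.15 for IR+CBD to Control, against -0.05 for all genes in both. The sizes of the cell gates differed between the libraries, with fewer Siglech-gated cells in IR and IR+CBD than in Control, and fewer cells of a type and less RNA per cell cannot be told apart in such sums over all cells.

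Of 24 genes of the lysosomal proton pump and of mTORC1 anchoring, which share the lysosomal membrane with Slc15a3 and Slc15a4, 0 were past 2-fold in any comparison. With at most 4.14% of all genes past 2-fold in 1 direction, 0 of 24 is near the shares of all genes. Their median log2 ratios were -0.09 for IR to Control, 0.01 for IR+CBD to IR and -0.07 for IR+CBD to Control. The interferon response genes, in contrast, stood high in IR. Of 20 such genes, 16 were past 2-fold higher in IR than in Control, against 2.24% of all genes. In IR+CBD, 15 were past 2-fold lower than in IR, against 1.11% of all genes. Rtp4, a chaperone for membrane receptors induced by interferon, had 6.83, 40.5 and 7.73 CPM, and Ifi27l2a had 70.2, 433 and 68.1 CPM. The median log2 ratio of IR to Control over the 20 genes lay between 1.36 and 2.38 in the 6 gates. Of the 20 genes, 1 was lower in IR than in Control in the Klf1 gate and 2 in the Siglech gate. Slc15a2 was lowest in IR in the same 6 gates, which all come from 1 IR library, so no link is read from this match. Neither Slc15a3 nor Slc15a4 was higher in IR than in Control beyond counting error in any gate.

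The pools were taken as alike in sex, because the paper states that radioprotection was evaluated in male mice. The Y-linked genes Ddx3y, Eif2s3y, Kdm5d and Uty differed between the libraries by less than 2-fold, with Ddx3y at 59.0, 51.1 and 56.8 CPM. Xist, transcribed from the inactive X chromosome of females, had 0.123, 0.158 and 0.213 CPM. These values bear on the sex of the mice and on no other difference among them.

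The genes whose levels followed each transporter most closely over the 18 values of 6 gates and 3 libraries were picked by Pearson's r of log2(CPM + 1) among 14255 genes with at least 500 UMIs. The 18 values share 3 libraries, and their gates share cells, so r is a description. For Slc15a2 the nearest were the unnamed gene ENSMUSG00000120777 at 0.837, the clock gene Per1 at 0.826, Eps8l1 at 0.779, Zfyve16 at 0.765 and Gm44152 at 0.758. For Slc15a3 they were Ccpg1 at 0.987, the cell cycle inhibitor Cdkn2d at 0.986, Lats2 at 0.979, Sertad1 at 0.979 and Myadm at 0.979. For Slc15a4 they were Snx9 at 0.994, Scpep1 at 0.992, Nek7 at 0.983, Zfp810 at 0.983 and the proton pump subunit Atp6v1h at 0.980. The genes nearest to Slc15a3 and Slc15a4 followed them more closely than any gene followed Slc15a2.

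The neighbours of the other 2 transporters were examined in the same way. Slc15a3 (ENSMUSG00000024737) lies at chr19:10839727-10859362 on the plus strand, with 51 neighbours of at least 100 UMIs, of which Cd6 and Gm50346 were past 2-fold lower and Gm8369 past 2-fold higher in IR than in Control. Over all genes the shares were 4.14% lower and 2.24% higher, so these counts are near the shares of all genes. Upstream the nearest were Cd6, a T cell surface receptor whose start lies 9.7 kb away, at 1.45, 0.558 and 0.726 CPM, and A430093F15Rik at 0.878, 0.479 and 0.548 CPM. Downstream they were Tmem132a, which overlaps it on the opposite strand and had 0.544, 0.385 and 0.254 CPM, and Tmem109 at 18.5, 20.9 and 17.5 CPM. In IR+CBD against Control, Tmem132a and Ms4a6d were past 2-fold lower, as were 3.42% of all genes. Slc15a4 (ENSMUSG00000029416) lies at chr5:127595664-127632897 on the minus strand, with 2 such neighbours, Glt1d1 and Tmem132c, and 0 past 2-fold.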

How the data were processed

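The authors deposited UMI counts for each gene in each cell, 1 matrix for each of the 3 libraries, not normalized. Cell Ranger 7.0.1, whose default includes intronic reads, is named in the file headers, whereas the submitters' notes name Cell Ranger 4.0 and GRCm39. The strand setting is not given in the sources used here. From the deposited counts, UMIs were summed per gene, gate and library in Python 3.11.15 (pandas 2.3.3, numpy 2.4.6, scipy 1.17.1), with matplotlib 3.10.9 for plots. A gene counted as past 2-fold when the CPM ratio, with 0.5 UMI added to each count, reached 2-fold among genes with at least 50 UMIs. No test between groups was possible with 1 library each. Doublets were kept, and removing those that Scrublet (scanpy 1.11.5) scored highest, 0.8% per 1000 cells, was an alternative. The members, lists and gates were chosen with earlier results of these data known, and 4 gates were added after the values were seen. The named genes were the members, the 5 genes of highest r for each, the neighbours past 2-fold or nearest, and list genes past 2-fold, while Nod2, Slc46a2, Slc46a3, Tasl, Tlr7, Glt1d1 and the examples from the interferon list were named after their values were seen. The ratio intervals were tried on simulated independent Poisson counts with known changes, which is the model that the intervals assume. The simulation held no gathering of UMIs in cells and no differences among mice, so it cannot show how the intervals behave under either.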

Additional observations from a re-analysis of the deposited data

Results flagged for a closer look

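For Slc15a3, IR+CBD against Control went in opposite directions in different cells. The ratio was 1.20 (1.05 to 1.37) in the Cd79a gate, while it was 0.821 (0.707 to 0.953) in the Mpo gate and 0.845 (0.713 to 0.999) in the Cd34 with Adgrl4 gate. Each gate has 1 library per group, so the difference between the gates was not tested.

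The barcodes removed by the quality limits, which enter no comparison of levels between cells, held Slc15a4 at 32.9 CPM in IR+CBD against 25.1 CPM in Control, a ratio of 1.31 (1.02 to 1.69), from 143 and 114 UMIs. The kept cells had a ratio of 0.945 for the same comparison.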

How the results depend on the processing

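Over all cells, 9 ratios were computed under 9 alternatives each, and 65 of these 81 values stayed within the 95% interval of the reported ratio. With the mean of each cell's own CPM, Slc15a2 was 0.147 for IR over Control and 1.35 for IR+CBD over Control, Slc15a3 was 0.817 and 0.999, and Slc15a4 was 0.995 and 1.08, the last on the other side of 1. With gates weighted by their Control shares of UMIs, Slc15a2 was 1.34 for IR+CBD over Control, Slc15a3 was 0.775 for IR over Control, and Slc15a4 was 0.930 for IR over Control and 1.02 for IR+CBD over Control, again on the other side of 1. In cells outside the gates only, an alternative chosen after seeing the data, Slc15a2 was 0.187, 6.00 and 1.12 for IR over Control, IR+CBD over IR and IR+CBD over Control, Slc15a3 was 1.14 for IR+CBD over IR and 0.797 for IR+CBD over Control, and Slc15a4 was 0.869 for IR+CBD over Control. The cause of these shifts was not tested. Within the 6 gates, 348 of 372 values stayed within the interval and 28 crossed to the other side of 1. Of these, 27 belong to ratios whose own interval includes 1, among them Slc15a3 in the Klf1 gate with predicted doublets removed, at 2.99 and 4.89 for IR and IR+CBD over Control on 1 Control UMI. The other 1 was Slc15a3 for IR+CBD over IR in the Cd34 with Adgrl4 gate, at 0.965 without cells of other gates. Slc15a2 for IR over Control lay between 0.0602 and 0.237, and for IR+CBD over IR between 3.85 and 32.3, wherever a value could be had. In the Siglech gate 3 alternatives (doublets removed, higher thresholds, cells of 1 gate) left no UMI of Slc15a2 in IR and gave no ratio to or from IR. No paired analysis was possible because each group is 1 library. Among these 6 gates, counting depth limits the Siglech gate most, where Slc15a2 rests on 1 UMI in IR.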
